A study of Mus musculus with 8 samples.

Results

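The livers of 2 female mice homozygous for a mutant Pus1 allele were compared with the livers of 2 wild-type females. The comparison rests on 2 of the 4 arrays of the study, and so on 4 of its 8 livers, chosen by array and not by any measured value. Per the labels all animals were C57BL/6J after 5 generations of backcrossing, were 14 to 16 weeks old, and no treatment is listed. The sources used here do not give how the mutant allele was made or whether mutants and wild types were littermates. Each array was a 2-colour Agilent array on which labelled copies of the RNA of 1 mutant and 1 wild-type liver competed for the same probes. The mutant carried the red dye Cy5 on array 1 and the green dye Cy3 on array 2, so the pair is dye-swapped. A log2 ratio of mutant over wild type was formed within each array, where 1 unit is a 2-fold difference, and genes with the same sign on both arrays were followed further. The other 4 livers, of 2 mutant and 2 wild-type males on arrays 3 and 4, serve here only to show where the females differ.

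Pus1 encodes pseudouridine synthase 1, which converts uridine into its isomer pseudouridine at set positions of tRNAs in the nucleus, the cytosol and the mitochondria, and of some other RNAs. Loss of the human enzyme causes an inherited disease of muscle mitochondria and of red cell formation. The liver consists mainly of hepatocytes, which carry out its metabolism, with sinusoidal endothelial cells, stellate cells and Kupffer cells, the resident macrophages, beside them. Many of the genes described below belong to the interferon response, in which the secreted interferons switch on a broad antiviral gene set through STAT and IRF transcription factors.

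Of 55681 probes, those that stood well above background in 2 or more female samples and were measured on both arrays gave 19017 genes or unnamed transcripts, of which 12617 had a symbol. Between 42.2% and 44.0% of spots were well above background in the female samples. With 2 arrays, precision is limited by their number throughout. Among the 4 livers, wild-type female 2 stood apart. Its level differed at least 4-fold from the median of the other 3 females at 162 genes, 97 above and 65 below, against 25, 10 and 14 genes for wild-type female 1, mutant female 1 and mutant female 2. Of these 162 genes, 156 lay nearer to the median of the 4 males than to that of the other females, a count made after the values were seen. This sample was on array 2, where the ratios of all genes had an SD of 0.61, against 0.35 on array 1. For this reason the ratio of each array is given throughout, array 1 being the value without wild-type female 2. Of the markers on the array, all 17 of hepatocytes, all 14 of sinusoidal endothelial cells and 21 of 22 of Kupffer cells were well above background in all 4 livers. So were 16671 of the 19017 genes tested, which limits what this says of the tissue.

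The targeted gene was examined first. The 1 Pus1 probe on the array, for transcript NM_001025561, had normalised log2 signals of 8.45 and 8.91 in wild-type females 1 and 2, and of 6.31 and 6.80 in mutant females 1 and 2. Both mutants lay below both wild types, and the probe exceeded background clearly, by the scanner software's mark, in both wild types and in neither mutant. The log2 ratios were −2.14 and −2.11, on average 4.36-fold lower in mutants (log2 −2.12 ± 0.20 SE, n = 2 arrays), a value that rests on dim mutant signals. In the limma fit across all genes its adjusted p was 0.421, which missed the threshold of 0.05. The sources used here do not place this probe relative to the mutation. Of the other 10 pseudouridine synthases tested, 4 were higher in mutants on both arrays and 0 were lower on both (27.3% and 29.7% of all genes). Rpusd4, a mitochondrial member of the family, had ratios of 0.70 and 0.48.

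No gene passed in the female comparison (0 of 19017, 0%), and the smallest adjusted p was 0.421. At an unadjusted p under 0.05 there were 1645 genes (8.65%), 627 higher and 1018 lower in mutants. With 2 arrays the fit has 1 residual degree of freedom, and exact permutation could not give a p under 0.5 by exchanging genotypes within arrays or under 0.333 by exchanging them among the 4 livers. With the spread taken from the male arrays, on which some of these genes were not above background, array 1 alone gave 13 calls and array 2 alone 1249, and median centring of both gave 10. The values below are therefore given as ratios, none of which passed in the fit of both arrays after loess. The ratios of arrays 1 and 2 correlated with r = 0.238 across genes, and genes are no independent replicates. Arrays 1 and 3, which share a dye orientation but no sample, correlated with r = 0.225, and arrays 2 and 4 with r = 0.296. Between orientations the values were 0.013 for arrays 1 and 4, 0.148 for arrays 2 and 3 and −0.242 for arrays 3 and 4. The part of the dyes in single ratios was not tested.

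Both arrays gave a higher value in the mutant for 5193 genes (27.3%) and a lower one for 5653 (29.7%). Both mutant livers lay above both wild-type livers at 4056 genes (21.3%) and below both at 4525 (23.8%). At least 2-fold on both arrays were 33 genes higher (0.174%) and 80 lower (0.421%) in mutants, of which 30 and 28 had a symbol. This split turned with the scaling. After median centring in place of loess 96 were higher and 26 lower, the median of all genes then standing at 0.50 on array 1 and −0.37 on array 2 against 0.00 and −0.03 after loess. The shares of all genes given below are those after loess. List counts after median centring have no such share beside them and cannot be set against these. The last genes inside the 2-fold limit were Ifit3b (1.00 and 2.72) and Samd9l (1.00 and 1.45), and the first outside were Mcm6 (1.00 and 1.77) and Trim30a (0.98 and 1.55).

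**Figure D1:**
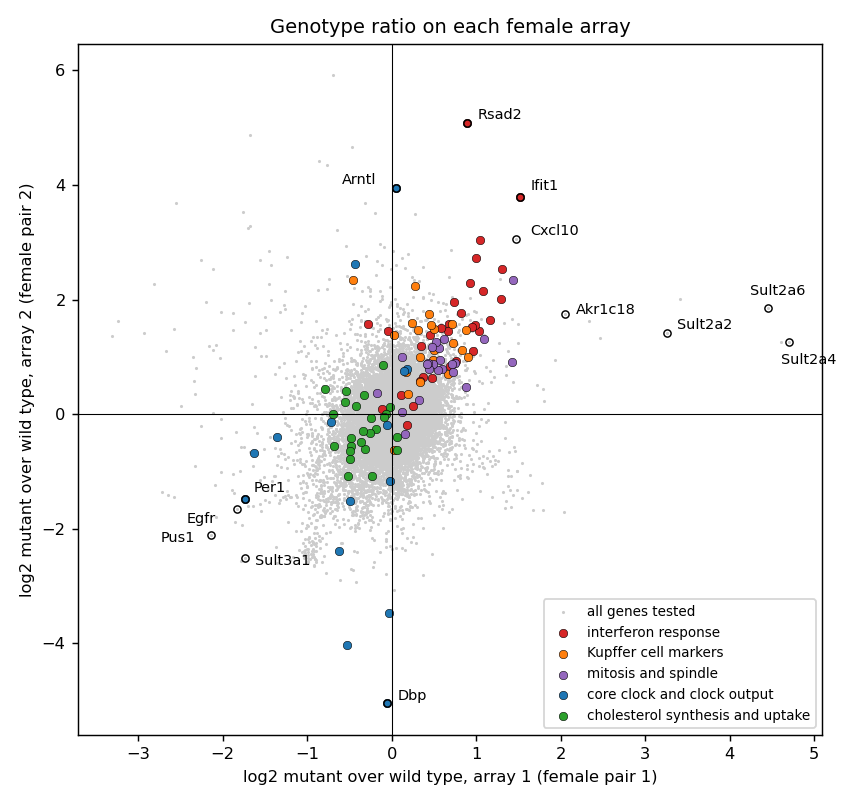
Each point is 1 gene or unnamed transcript, with its log2 ratio of mutant over wild type on array 1 (horizontal) and on array 2 (vertical). Coloured points are members of 5 gene lists and ringed points are named genes. Interferon response genes lie in the upper right and Pus1, Egfr, Per1 and Sult3a1 in the lower left, while Dbp and Arntl lie near 0 on array 1 and far from it on array 2.

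Among genes at least 2-fold higher on both arrays were 4 Sult2a sulfotransferases, cytosolic enzymes that attach sulfate to bile acids and hydroxysteroids and that are typical of female mouse liver. Sult2a1 had log2 signals of 11.41 and 14.48 in wild types and of 16.02 and 15.74 in mutants. The mutants were alike, and the wild types lay far apart, with wild-type female 1 the lowest of the 4. The ratios of Sult2a1 were accordingly 4.61 and 1.25 (7.63-fold higher, log2 2.93 ± 0.77 SE, limma adjusted p = 0.458). Sult2a6 had ratios of 4.45 and 1.85, Sult2a4 of 4.70 and 1.26, and Sult2a2 of 3.25 and 1.42. These genes are close relatives, so their probes may read each other's transcripts and do not count as 4 separate observations. None of the 4 was well above background in any male. In limma all 4 passed after median centring.

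Other leading genes were steadier across the arrays. Akr1c18 encodes the 20-alpha-hydroxysteroid dehydrogenase that inactivates progesterone. Its signals were 7.37 and 7.03 in wild types and 9.42 and 8.77 in mutants, and its ratios were 2.06 and 1.74 (3.73-fold higher, log2 1.90 ± 0.21 SE, limma adjusted p = 0.421). The groups did not overlap, as is likely for a gene picked by its ratios, and the ratios in males were −0.19 and 0.08. Prom1, a membrane protein known as a marker of progenitor cells, read 9.92 and 9.48 in wild types and 11.4 and 11.1 in mutants. Its ratios were 1.49 and 1.58, against 0.02 and 0.16 in males. Septin11, a filament-forming GTPase gene, had ratios of 1.33 and 1.60. Gm8909 had 1.42 and 1.67, Gm3776 2.46 and 1.33, and Mmd2 1.29 and 2.36. The male arrays gave 0.99 and 0.15 for Septin11, 1.46 and 0.26 for Gm8909, 0.65 and 1.55 for Gm3776 and 0.91 and −0.46 for Mmd2. The other 5 of the 15 leading symbols, Cdc20, Ifit1, Usp18, Ifi44 and Cxcl10, are described with their groups.

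Among symbols other than Pus1, the lowest by the smaller ratio of both arrays was Sult3a1, another female-typical sulfotransferase, with signals of 12.2 and 13.0 in wild types and of 10.5 and 10.5 in mutants. Its ratios were −1.74 and −2.51 (4.37-fold lower, log2 −2.13 ± 0.26 SE, limma adjusted p = 0.421). It thus ran opposite to the Sult2a genes in the same livers. Egfr, the epidermal growth factor receptor, read 12.9 and 13.3 in wild types and 11.1 and 11.6 in mutants. The ratios of that probe were −1.83 and −1.65, but a second Egfr probe gave −0.76 and 0.76 and another −0.98 and −0.27, so the probes disagree. For 9 other named genes with further probes above background, all of those probes had the sign of the one used on both arrays, though not always its size. Another Septin11 probe gave 0.52 and 0.28, and another Msr1 probe 0.21 and 0.06.

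Per1, a repressor of the circadian clock that also responds to glucocorticoids, had signals of 12.0 and 12.5 in wild types and of 10.3 and 11.0 in mutants (ratios −1.74 and −1.49). Pck1, the enzyme that commits carbon to gluconeogenesis, read 16.6 and 17.2 in wild types and 15.5 and 15.8 in mutants (ratios −1.13 and −1.41). In both genes the lowest wild type exceeded the highest mutant, as is likely for genes picked by their ratios. Ugt1a10, a glucuronosyltransferase whose transcript shares its last exons with the other Ugt1a forms, had ratios of −1.50 and −1.49. Mfsd2a, a transporter of lysophosphatidylcholine, had −1.89 and −1.32. Further genes at least 2-fold lower on both arrays were the NADPH oxidase gene Nox4 (−1.45 and −1.53), the phosphate transporter gene Slc20a1 (−1.41 and −1.17) and the ganglioside synthase gene St3gal5 (−1.11 and −1.60). Gdap10 (−1.38 and −1.42), Serpina4-ps1 (−2.72 and −1.35), Fam47e (−1.26 and −1.44), Cyp2g1 (−1.25 and −1.48), Mtss1 (−1.12 and −1.46) and Gcm1 (−1.10 and −2.37) completed the 15. Serpina4-ps1 is a pseudogene, and related transcripts may add to its signal. The Gcm1 probe belongs to a set of 53 probes with 1 shared pattern of ratios, described at the end. A further Gcm1 probe, well above background in 0 of the 4 females, gave 0.01 and 0.11. What the bright Gcm1 probe measures was not tested.

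**Figure D2:**
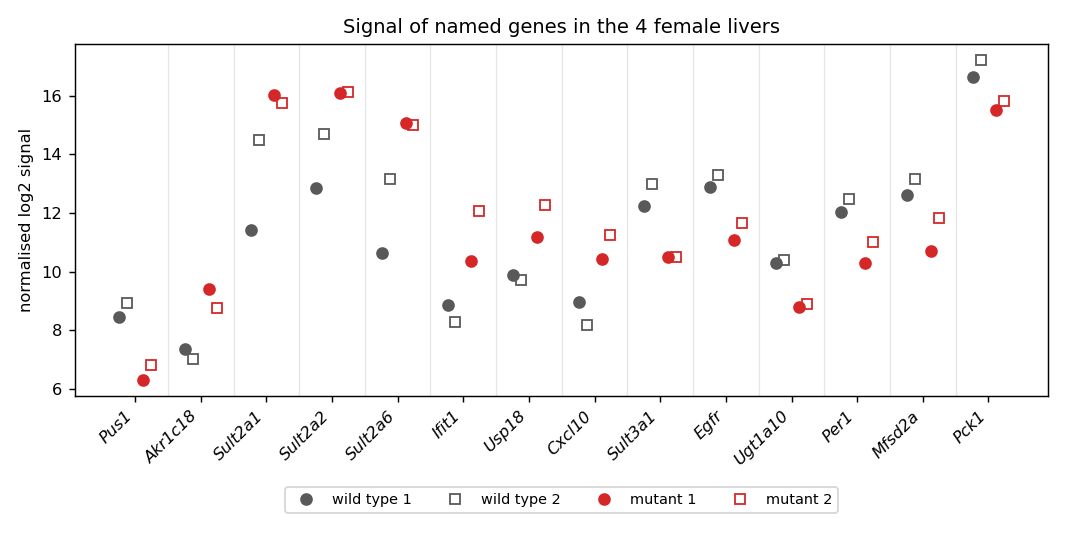
Normalised log2 signal (vertical) of 14 genes in each of the 4 female livers, grey for wild type and red for mutant, filled for array 1 and open for array 2. The 2 mutants lie on one side of the 2 wild types for every gene shown, and the wild types are far apart for the Sult2a genes. All but Pus1 were picked for large ratios of 1 sign on both arrays, so this separation follows largely from the choice.

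Genes of the interferon response were higher in mutants as a group. Of 32 tested members, 28 were higher in mutants on both arrays and 0 were lower on both, where 27.3% of all genes were higher. Both mutants lay above both wild types at 26 members, where the share of all genes was 21.3%. The median ratio was 0.71 on array 1 and 1.48 on array 2, and the medians of all genes were 0.00 and −0.03. On array 1 alone 29 of 32 were higher, against 50.3% of all genes. No member passed in the limma fit, and 24 had an unadjusted p under 0.05, all higher (8.65% of all genes in either direction). At least 2-fold higher on both arrays were 8 members (0.174% of all genes). With processed signals 29 members were higher on both arrays, and after median centring 28 were higher and 1 lower. Of the 32 members 29 were well above background in all 4 females. Without the filter on dim probes the median of both arrays was 0.98 over 36 genes, against 1.05 with it.

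Regulatory sequence of this group is shown because its members moved together and because the factor that drives them in response to interferon binds a known element. The interferon-stimulated response element holds 2 GAAA blocks spaced by 2 bases, searched here as GAAANNGAAA on both strands, with overlapping matches counted and no other motif searched. In RefSeq promoter windows of the assembly GRCm38.p6, which reach from 250 bases before to 50 bases after a start site, 24 of the 32 members had a window and 12 (50%) held a match. The share was 3.99% of all 27025 genes with a window. Capitals mark the matches, all lines read 5′ to 3′ on the strand of the gene, and a match in capitals that starts with TTTC is the same element read on the other strand.
Ifit1, chr19:34640760-34640819, plus strand: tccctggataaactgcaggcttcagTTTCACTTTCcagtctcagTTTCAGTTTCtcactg
Isg15, chr4:156200862-156200921, minus strand: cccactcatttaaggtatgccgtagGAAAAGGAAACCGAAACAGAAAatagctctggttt
Rsad2, chr12:26456538-26456597, minus strand: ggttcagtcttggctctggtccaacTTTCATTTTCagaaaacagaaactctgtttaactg
The first match begins at position −104 from the start site in Ifit1, −78 in Isg15 and −120 in Rsad2. Isg15 holds 3 matches in its window, Ifit1 2 and Rsad2 1. Several genes with high ratios, Ifi44, Cmpk2 and Oasl2 among them, had no match in this window. Of 9 interferon-inducible GTPases with a window 8 (88.9%) held a match, as did 2 of 18 mitosis genes (11.1%) and 1 of 13 Kupffer cell markers (7.69%).

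Ifit1, which blocks translation of viral RNA that lacks host cap methylation, read 8.85 and 8.27 in wild types and 10.4 and 12.1 in mutants. Its ratios were 1.52 and 3.79 (6.30-fold higher, log2 2.65 ± 0.54 SE, limma adjusted p = 0.421). Mutant female 2 was the highest of the 4, and the wild types were close together. After median centring Ifit1 and Cxcl10 passed in limma. Usp18, the protease that removes ISG15 from proteins and damps interferon signalling, read 9.88 and 9.72 in wild types and 11.2 and 12.3 in mutants (ratios 1.30 and 2.54). Isg15, the ubiquitin-like modifier itself, read 12.6 and 12.9 in wild types and 13.6 and 15.2 in mutants (ratios 0.92 and 2.28). The same order, with wild types close together and mutant female 2 highest, was seen for Ifi44 (ratios 1.30 and 2.00) and for Oas1a, a sensor of double-stranded RNA (1.16 and 1.65).

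Rsad2 encodes viperin, an enzyme that makes a chain-terminating nucleotide, and is named after its values were seen. It had the highest array 2 ratio of the list, with 9.44 and 7.40 in wild types and 10.3 and 12.5 in mutants. Its ratios were 0.89 and 5.09, so wild-type female 2, the lowest of the 4, adds to the second. Among regulators, Irf7, which amplifies the interferon response, had ratios of 0.68 and 1.58, and Irf9, the DNA-binding partner of the STAT proteins, of 0.48 and 0.64. Stat2 (0.19 and −0.19), Oasl1 (−0.28 and 1.58), Herc6 (−0.04 and 1.44) and Sp100 (−0.12 and 0.09) were the 4 members without one sign.

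Oas1a, Oas2, Oasl1 and Oasl2 lie within 20 Mb of Pus1 in the assembly GRCm38.p6. Of the 28 members elsewhere, 25 were higher on both arrays, with medians of 0.71 and 1.48. In males the medians of the list were 0.15 on array 3 and −0.10 on array 4. The difference between the sexes was tested gene by gene only, as given below.

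Genes that interferon-gamma induces were described next. Of 21 antigen presentation genes 11 were higher and 5 lower on both arrays (52.4% and 23.8%, against 27.3% and 29.7% of all genes). Their medians were 0.04 and 0.11. After median centring 6 were higher and 0 lower, counts without a share of all genes for that scaling. Tap1, which carries peptides to class I molecules, had ratios of 0.30 and 1.28, and the class I gene H2-Q4 of −0.63 and −1.62. Of 16 interferon-inducible GTPases, which attack the vacuoles of intracellular parasites, 11 were higher on both arrays and 1, Gbp6, was lower on both (27.3% and 29.7% of all genes). The list medians were 0.48 and 0.97, against 0.20 and −0.07 in males. Without the filter on dim probes the median of both female arrays was 0.45 over 17 genes, against 0.56 with it. Gbp3 read 9.65 and 10.6 in wild types and 11.1 and 11.8 in mutants (ratios 1.49 and 1.24). Tgtp2 had ratios of 0.80 and 1.57 and Irgm2 of 0.76 and 1.53, and for all 3 the mutants lay above the wild types. The Gbp genes within 20 Mb of Pus1, Gbp4, Gbp6, Gbp8, Gbp9 and Gbp10, were the 5 that were not higher on both arrays. Probes of such close relatives can share signal.

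Of 15 chemokines and cytokines, 10 were higher on both arrays and 3 lower on both (27.3% and 29.7% of all genes). Their medians were 0.24 and 1.39. Of the 15, 13 were well above background in all 4 females, and a gene bright in the mutants alone could pass the filter. Without the filter on dim probes the median of both arrays was 0.63 over 21 genes, against 0.96 with it. Cxcl10, which draws activated T cells and is itself induced by interferon, read 8.96 and 8.18 in wild types and 10.4 and 11.2 in mutants (ratios 1.47 and 3.06, log2 2.27 ± 0.40 SE). Cxcl13, which attracts B cells, had ratios of 1.09 and 1.39. The macrophage cytokine Il1b had 0.71 and 2.86, with 8.68 and 6.82 in wild types and 9.38 and 9.68 in mutants. Wild-type female 2 was the lowest of the 4 for Cxcl10 and Il1b. Ccl3 (−0.66 and 0.79) and Cxcl1 (−0.27 and 0.95) had opposite signs on the 2 arrays.

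Markers of Kupffer cells were higher as a group. Of 21 tested, 19 had higher values in mutants on both arrays and 0 lower on both (27.3% and 29.7% of all genes), and both mutants exceeded both wild types at 17 (21.3% of all genes). The medians were 0.44 and 1.24 in females and 0.39 and 0.42 in males. On array 1 alone 20 of 21 were higher. Adgre1, the macrophage surface protein F4/80, read 9.47 and 8.72 in wild types and 10.4 and 9.72 in mutants (ratios 0.90 and 1.00). Lyz1, a lysozyme, had ratios of 0.88 and 1.46, Cd5l, a secreted macrophage protein, 0.72 and 1.24, and the scavenger receptor Msr1 0.83 and 1.12 by its brightest probe. For Clec4f, found on Kupffer cells of rodents, 3 livers were alike, at 12.7 in wild-type female 1 and 12.7 in both mutants, and wild-type female 2 read 11.3. Its ratios were therefore 0.03 and 1.38.

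The summed level of the 21 Kupffer cell markers was 15.8 and 15.2 in wild types and 16.2 and 16.1 in mutants on the log2 scale. In whole liver, more cells of a type and more RNA per cell cannot be told apart. Kupffer cells also make interferon response genes and chemokines, and their part in those lists was not tested. For the counts that follow, 27.3% of all genes were higher and 29.7% lower on both arrays. Of 14 sinusoidal endothelial markers 2 were higher and 4 lower on both arrays (14.3% and 28.6%, medians −0.16 and 0.18). Of 14 lymphocyte markers 3 were higher and 3 lower (21.4% each, medians −0.12 and 0.19). The summed level of the lymphocyte markers was 14.4 and 14.2 in wild types and 13.9 and 13.7 in mutants. Stellate cell and matrix genes had 7 higher and 2 lower of 12 (medians 0.26 and 0.32 in females, −0.29 and −0.01 in males), while their summed level was 15.7 and 15.4 in wild types and 15.6 and 15.4 in mutants. Hepatocyte markers had 3 higher and 5 lower of 17 (median of both arrays −0.07, and 0.13 after median centring). Of 7 neutrophil markers 2 were higher and 1 lower on both arrays (medians −0.09 and 0.97). Their summed level was 15.2 and 16.2 in wild types and 14.98 and 15.05 in mutants, and wild-type female 2 was the highest of the 4 for Csf3r, a receptor of that list (ratios −0.29 and −1.58). The neutrophil genes S100a8 (−0.09 and 2.91) and S100a9 (−0.19 and 3.51) were near 0 on array 1 and high on array 2, where wild-type female 2 was the lowest of the 4 livers.

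Genes of cell division had higher values in mutants of both sexes. Of 23 tested mitosis and spindle genes, 21 were higher on both arrays and 0 lower on both (27.3% and 29.7% of all genes), with medians of 0.54 and 0.88. In males the medians were 1.55 and 0.63, and with processed signals the median of both female arrays was 1.47 against 0.69. Without the filter on dim probes that median was 0.56, over 35 genes. Only 14 of the 23 were well above background in all 4 females, against 16671 of all 19017 genes. Genes bright in the mutants alone, such as Aurka, could pass the filter because they are higher there, so the count of 21 is not free of it. Cdc20, which activates the ubiquitin ligase that triggers anaphase, read 7.02 and 6.68 in wild types and 8.46 and 9.01 in mutants (ratios 1.44 and 2.33). Birc5, the survivin of the chromosomal passenger complex, read 7.75 and 8.31 in wild types and 9.17 and 9.21 in mutants (ratios 1.42 and 0.90). The mitotic kinase Aurka was well above background in neither wild type and in both mutants. It was on average 2.30-fold higher in mutants, a value that rests on dim wild-type signals. In males Cdc20 read 8.35 and 9.07 in wild types and 11.4 and 10.2 in mutants (ratios 3.03 and 1.08).

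DNA replication genes showed a smaller shift of the same sign. Of 26 tested, 19 were higher and 3 lower on both arrays (27.3% and 29.7% of all genes), with medians of 0.28 and 0.59. Mcm6, a subunit of the replicative helicase, read 9.52 and 9.14 in wild types and 10.5 and 10.9 in mutants (ratios 1.00 and 1.77). Mcm2, Mcm3, Mcm4 and Mcm5 of the same complex had ratios between 0.52 and 0.98. E2f8, a repressor of the cell cycle, had −0.88 and −0.39.

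Genes of cholesterol synthesis and uptake had lower values in mutant females after loess. Of 25 tested genes 0 were higher and 16 were lower on both arrays, against 27.3% and 29.7% of all genes, and 23 were lower on array 1 alone (49.7% of all genes). The medians were −0.34 and −0.29, whereas the male arrays gave 0.55 and 0.08. After median centring only 1 gene was lower on both arrays, since that scaling shifts the arrays apart, and the median of both arrays was −0.12. Hmgcs1, which makes the HMG-CoA that enters the pathway, read 15.3 and 15.9 in wild types and 14.8 and 14.8 in mutants (ratios −0.52 and −1.09). Msmo1, a sterol oxidase, had ratios of −0.68 and −0.56, and Sqle, the squalene epoxidase, had −0.49 and −0.64. Mutants lay below wild types for Hmgcs1, Msmo1 and Sqle.

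Mitochondrial genes encoded in the nucleus had small ratios. Of 37 complex I subunits 25 were higher and 1 lower on both arrays (medians 0.18 and 0.20), and of 40 subunits of complexes II to V 23 and 1 (medians 0.16 and 0.15). Mitochondrial ribosomal proteins had 38 higher and 6 lower of 74 (medians 0.12 and 0.29), where 27.3% of all genes were higher and 29.7% lower. After median centring the genes higher on both arrays numbered 9 of 37, 8 of 40 and 23 of 74, counts that cannot be set against the shares after loess. The medians of these 3 lists over both arrays were then 0.36, 0.35 and 0.32, against 0.04 for all genes. Array 2 alone was below 0 in each list, and at −0.37 for all genes. Examples are Ndufs8 (0.58 and 0.98) and Ndufa10 (0.55 and 0.95) of complex I and Atp5b of the ATP synthase (0.49 and 0.51). Cytosolic ribosomal proteins had 4 higher and 31 lower of 77, with medians of −0.11 and −0.09, but the median of both arrays turned to 0.09 after median centring and to 0.04 in the series table values. Enzymes of the urea cycle and of amino acid breakdown had 23 higher and 4 lower of 45, led by Oat, which converts ornithine (0.66 and 1.09), and Cth, which makes cysteine (0.54 and 1.95).

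Genes of bile acid handling had both signs. Of 20 tested 5 were higher and 9 lower on both arrays (27.3% and 29.7% of all genes), with medians of −0.07 and −0.15, and the median of both arrays turned to 0.02 after median centring. Cyp7a1, the rate-limiting enzyme of bile acid synthesis, read 11.1 and 10.9 in wild types and 10.2 and 10.5 in mutants (ratios −0.94 and −0.47). Nr0b2, the receptor SHP that represses Cyp7a1, read 8.64 and 7.78 in wild types and 9.41 and 8.66 in mutants (ratios 0.77 and 0.88). For Cyp7a1 and Nr0b2 the groups did not overlap. Nr1h4, the bile acid receptor FXR, had ratios of −0.44 and −0.52, and the sterol exporter gene Abcg5 of −0.56 and −1.16. In drug metabolism 6 genes were higher and 8 lower of 30 (20% and 26.7%, against 27.3% and 29.7% of all genes). After median centring 7 were higher and 1 lower. Among the 8 lower ones after loess were Por, the electron donor of the microsomal cytochromes (−0.71 and −1.27), and the xenobiotic receptor Nr1i3 (−0.73 and −0.71). The 6 higher ones are not named here. Alas1, the rate-limiting enzyme of heme synthesis, had ratios of −0.77 and −2.78, and wild-type female 2 was the highest of the 4 at 17.4.

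Genes that act on tRNA beside Pus1 had small ratios. Of 51 enzymes of tRNA modification and aminoacylation 22 were higher and 8 lower on both arrays, with medians of 0.07 and 0.11. These are 43.1% and 15.7%, against 27.3% and 29.7% of all genes. After median centring 14 were higher and 1 lower. The dihydrouridine synthase gene Dus2 had ratios of 0.49 and 0.41, the methyltransferase gene Trmt5 of 0.36 and 0.37, and the mitochondrial synthetase gene Ears2 of 0.36 and 0.40. The cysteinyl-tRNA synthetase gene Cars had −0.54 and −0.43. Among 24 chaperones of the endoplasmic reticulum and of heat shock, 11 were higher and 3 lower (45.8% and 12.5%), and 11 and 1 after median centring. Manf (0.68 and 0.89) and Creld2 (0.63 and 0.94), both secreted under stress of that compartment, were higher, while Herpud1, which serves the removal of misfolded proteins from it, had −1.68 and −0.66. Of 35 antioxidant and glutathione enzymes 19 were higher and 3 lower (54.3% and 8.57%), and 12 and 0 after median centring. Among them were Gstm2 at 0.68 and 0.60 and Gstm3 at 0.87 and 0.45. Gstm2 and Gstm3 are close relatives and were above 0 in males too (0.83 and 0.63, and 0.66 and 1.34).

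**Figure D3:**
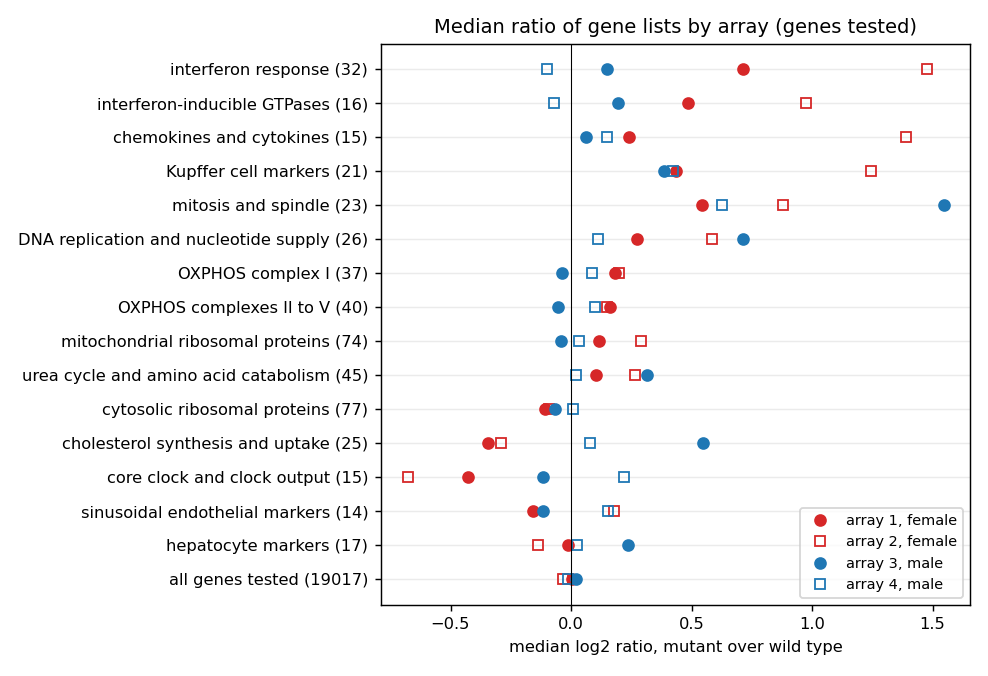
Median log2 ratio of mutant over wild type (horizontal) of 15 gene lists and of all genes, red for the female arrays and blue for the male arrays, with the number of genes tested in brackets. The interferon response stands at 0.71 and 1.48 in females and at 0.15 and −0.10 in males, and mitosis genes are above 0 on all 4 arrays.

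Circadian genes showed how far wild-type female 2 lay from the other females. The clock is driven by the activators Arntl and Clock, and outputs such as Dbp, Tef and Usp2 peak at another time of day than Arntl. The genes of this paragraph and the next that rest on 1 liver were named after their values were seen. Dbp read 8.09 in wild-type female 1 and 8.03 and 9.70 in mutants, but 14.8 in wild-type female 2, within the range of 13.5 to 14.8 in males. Tef read 11.6, 11.5 and 11.4 in these 3 females and 14.9 in wild-type female 2. Usp2 read 8.35, 7.81 and 8.23 against 12.3. Arntl ran the other way, at 9.93, 9.98 and 10.1 against 6.13, and it was well above background in 0 of 4 males. The repressor Nfil3 read 13.0, 12.6 and 12.5 against 9.90.

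The ratios of these genes thus rest on array 2, with −0.06 and −5.05 for Dbp, −0.03 and −3.48 for Tef and 0.05 and 3.95 for Arntl. The list as a whole had 3 higher and 11 lower of 15, against 27.3% and 29.7% of all genes. Its medians were −0.43 and −0.68, and its array 1 median turned to 0.32 after median centring. Per1 and the repressor Nr1d1 (−1.63 and −0.68) were lower on array 1 as well. The time of tissue collection was not found in the labels, and its part in the female ratios was not tested.

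Genes that respond to fasting and glucocorticoids differed by array. On array 1 18 of 21 were lower in the mutant (49.7% of all genes), and on array 2 the median was above 0. Igfbp1, which binds insulin-like growth factors and is induced by fasting, likewise named after its values, read 17.9 in wild-type female 1, 17.4 and 17.1 in mutants and 12.4 in wild-type female 2. G6pc, the last enzyme of glucose release, read 16.0, 15.7 and 15.4 against 13.3. Wild-type female 1 stood out in other genes. It read 14.2 for Ddit4, an inhibitor of the growth regulator mTORC1, against 10.8 to 12.2 in the other 3 females. For the metallothionein gene Mt2 it read 18.5 against 16.6 or less. Of 21 genes of the fasting and glucocorticoid list 2 were higher and 8 lower on both arrays (27.3% and 29.7% of all genes). The list medians of −1.01 and 0.18 differed in sign. Besides Per1 and Pck1, Zbtb16, a glucocorticoid-induced transcription factor, was at least 2-fold lower on both arrays (−1.51 and −1.10), and the phosphatidate phosphatase Lpin1 had −2.32 and −0.91.

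**Figure D4:**
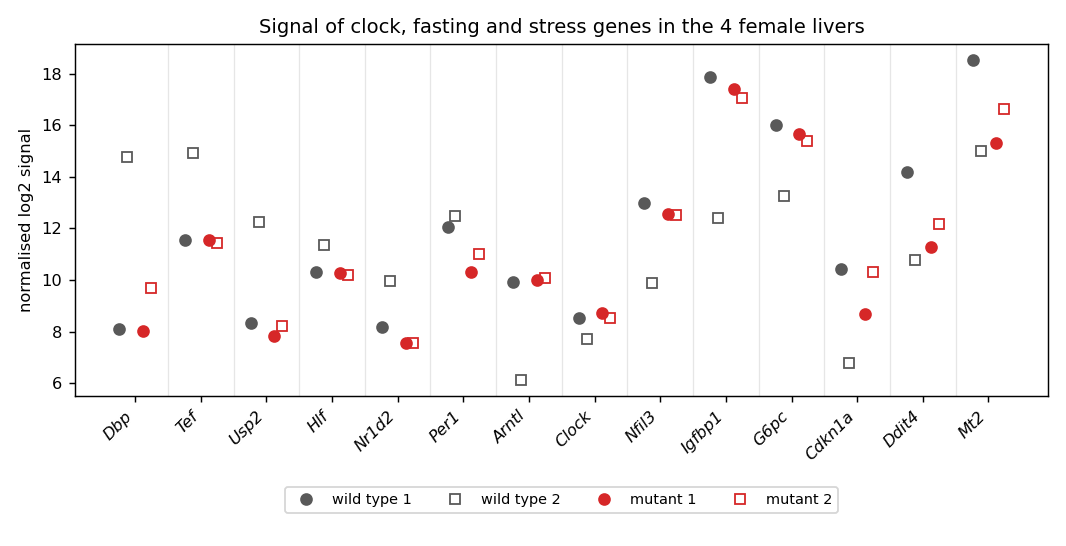
Normalised log2 signal (vertical) of 14 clock, fasting and stress genes in the 4 female livers, grey for wild type and red for mutant, filled for array 1 and open for array 2. Wild-type female 2 (open grey) is above the other 3 livers for Dbp, Tef and Usp2 and below them for Arntl, Nfil3, Igfbp1 and G6pc, while wild-type female 1 (filled grey) is highest for Ddit4 and Mt2.

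Sex-biased liver genes gave no common direction. Of 32 female-biased genes 13 were higher and 10 lower on both arrays (40.6% and 31.2%, against 27.3% and 29.7% of all genes). The cytochrome Cyp3a44 (0.74 and 1.14) and the oxidase Hao2 (0.98 and 1.80) sided with the Sult2a genes, and the transporter Slc22a26 (−0.82 and −0.57) with Sult3a1. Of 29 male-biased genes 5 were higher and 8 lower on both arrays (17.2% and 27.6%). The repressor Bcl6 had 0.81 and 1.04 there, and Hsd3b5 (−2.67 and 1.10) and Slco1a1 (−1.56 and 2.69) had opposite signs.

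Genes close to Pus1 were described because donor sequence beside a mutant allele can stay linked to it through backcrossing. Within 20 Mb of Pus1 292 genes were tested. Of these 93 were higher and 86 lower on both arrays, 31.8% and 29.5%, against 31.4% and 24.9% of 12325 symbols elsewhere. At least 2-fold on both arrays were 6 higher and 2 lower of these 292, Pus1 being 1 of the lower ones. By the same rule 24 were higher and 26 lower of the 12325 symbols elsewhere. On the rest of chromosome 5 they numbered 2 and 0 of 501. The shares of all genes, unnamed transcripts included, were 0.174% and 0.421%. The 6 higher ones were Cxcl10, Cxcl13, Oas1a, Oasl2 (1.03 and 1.45), Septin11 and 1500011B03Rik (1.20 and 1.64, with 0.73 and 0.48 in males). Cxcl10, Cxcl13, Oas1a and Oasl2 are also members of the interferon or chemokine lists above. Fam47e, AW549542 (−0.92 and −2.07), the acetoacetate-activating enzyme Aacs (−0.85 and −1.16) and Thoc2l (−0.73 and −1.28) were lower. Oas1a had ratios of 1.22 and 0.60 in males, so it was above 0 on all 4 arrays, as were Cxcl10, Cxcl13, Septin11 and 1500011B03Rik.

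**Figure D5:**
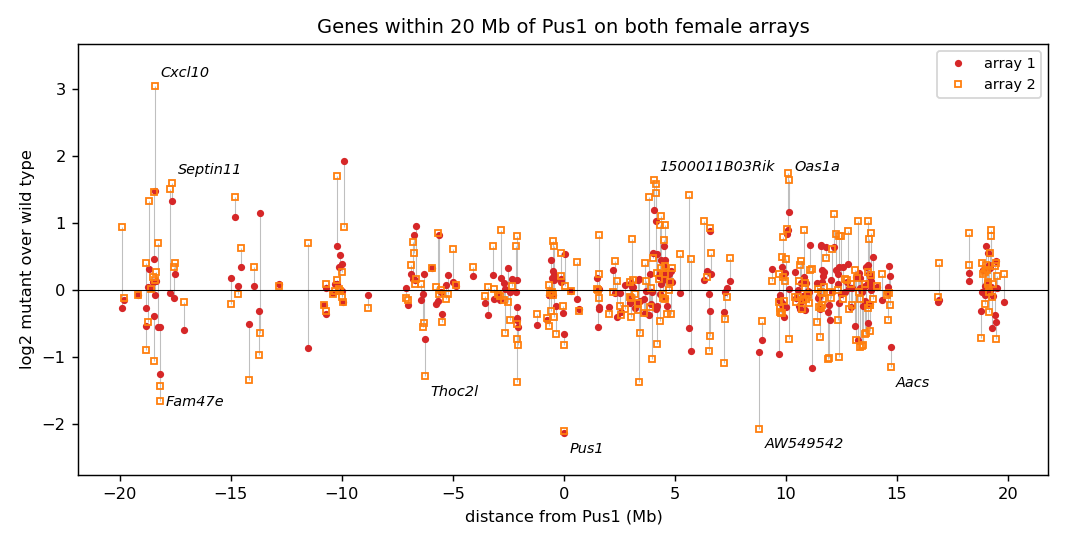
Log2 ratio of mutant over wild type (vertical) on array 1 (filled) and array 2 (open) against distance from Pus1 in Mb in the assembly GRCm38.p6, for the 292 genes within 20 Mb. Lines join both values of a gene. Pus1 is the lowest on array 1 at −2.14 and Cxcl10 the highest on array 2 at 3.06.

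The females were then set against the males. In a fit of all 4 arrays with a coefficient for each sex and one for dye, the genotype effect differed between the sexes at 0 of 16212 genes in limma (0%), with 961 at an unadjusted p under 0.05 (5.93%) and a smallest adjusted p of 0.805. No gene is therefore shown to respond in females alone. The genes with the smallest p on the higher side were Akr1c18, Prom1, Il1b, Msr1 and Ifi44. On the lower side they were Per1, Egfr, Ugt1a10, Eif4ebp3 and Mfsd2a. Per1 had ratios of 0.30 and 0.47 in males and Egfr of 0.40 and 0.07, opposite in sign to both female arrays. Ifit1 had 0.04 and −0.14 in males, where its signal of 7.98 to 8.73 was within the range of the wild-type females or below it.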

How the data were processed

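Total RNA of frozen liver was labelled (200 ng) and hybridised to 4 arrays of 1 slide, per the labels' protocols. The array files hold an intensity per spot and channel on a linear scale, made by Agilent Feature Extraction 10.7.3.1 per the file headers and the submitters' processing notes, beside 0 or 1 marks of other kinds (well above background, saturated, outlier). Log2 values stand in the series table that the authors deposited, centred per probe as far as the values show, since its scale and centring are not stated. The female columns have medians of −0.0135 and −0.00392 in wild types and of −0.00537 and −0.00754 in mutants, the male columns of −0.000942 to 0.015, and its differences within arrays correlate with processed-signal ratios at 0.992 to 0.998. Of the array files 68 per-sample columns were not used.

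Median signals were corrected with normexp (offset 50) and loess within array in limma 3.58.1 (R 4.3.3; files read with data.table, version 1.17.8). Marked outlier spots, 0.45% and 0.43% on arrays 1 and 2, were dropped. A gene is its brightest probe, and 27656 probes were named through RefSeq accessions. Log2 ratios were fitted with limma, an intercept and Benjamini-Hochberg adjustment. Sample levels are single-channel log2 values after Aquantile. Where both females of 1 genotype were dim, a bound set the bright group against the higher of the dim signal and the lowest signal well above background. For Pus1 and Aurka it equalled the fold of the mean ratio, so no bound is given. A fit with a coefficient per sex and dye tested the difference from males. Fits were tested on simulated data. The samples are separate animals per the design text, and no samples had identical signals (0 of 28 pairs). The replicate number names the array that a mutant and a wild type share, so the array is the block. Deviations of same-numbered samples correlated at −0.0386 across genes.

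Members and gene lists were chosen with earlier results of these data known. Named genes are Pus1, the 15 symbols each way with the largest smaller ratio of both arrays, 4 per list, 5 each way for the difference between sexes, and 4 each way within 20 Mb of Pus1. Except for Pus1 and those picked by the difference between sexes, these were picked for 1 sign on both arrays. Groups of theirs that do not overlap follow largely from that choice. Other genes were named after their values were seen. Some members of the lists are not reported here by name. Alternatives were processed signals, median centring, series table values, 2 filters on dim probes, other fits and arrays left out. After the values were seen, array 1 alone and lists without neighbours of Pus1 were added. Figures were drawn with matplotlib 3.10.9 (Python 3.11.15).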

Additional observations from a re-analysis of the deposited data

Results flagged for a closer look

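Some values had opposite signs in females and males on all arrays. The log2 ratio of Egfr was −1.74 in females (0.40 and 0.07 on the male arrays), that of Per1 −1.61 (0.30 and 0.47), that of Ugt1a10 −1.50 (0.17 and 0.00), that of Eif4ebp3 −0.98 (0.05 and 1.05) and that of Msr1 0.98 (−0.47 and −0.10). In the limma test of the difference between sexes each had an adjusted p of 0.805. Other probes of Egfr and Msr1 gave smaller ratios in females (0.21 and 0.06 for Msr1). Medians of 4 lists did the same, and for lists the difference was not tested. They were cholesterol synthesis and uptake (−0.28), drug metabolism genes of the Cyp families (−0.0928), hepatocyte markers (−0.0691) and stellate cell and matrix genes (0.32). After median centring the female medians of the drug metabolism genes and of the hepatocyte markers turned to 0.06 and 0.13.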

How the results depend on the processing

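The count of 0 genes stayed at 0 with processed signals, series table values, both filters on dim probes and all 4 arrays in 1 fit, with 1477 to 3085 genes at an unadjusted p under 0.05. Median centring called 10 genes (9 higher, 1 lower). Leaving out an array takes the spread from the males and assumes that females vary alike, and it gave 13 genes without replicate 2 and 1249 without replicate 1. Ignoring the replicate block gave 0 genes, 1627 at an unadjusted p under 0.05, and an adjusted p of 0.562 for Pus1. The replicate block changed no call.

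Genes at least 2-fold higher on both arrays numbered 149 with processed signals, 96 after median centring and 146 in the series table values, and genes lower 256, 26 and 228. On single arrays 102 to 629 were higher and 224 to 1081 lower. These counts have no value in the fits of all 4 arrays and without the block. The Pus1 log2 ratio was −4.02 with processed signals and −3.82 in the series table, values that rest on mutant signals not well above background. It passed without replicate 1 (−2.11, adjusted p = 0.00700) and not without replicate 2 (−2.14, adjusted p = 0.0552), and it has no value where all 4 samples must be above background. The difference between sexes called 3 genes without replicate 1 and 0 under the other alternatives. No call turned its sign. Of the values of named genes 310 kept their side of the threshold and 40 passed, 30 of these without replicate 1. The 4 that passed without replicate 2 are Sult2a genes, whose male probes were not above background, so the male spread says nothing of theirs. Among list medians 273 moved by less than the spread between arrays and 69 by more. The cause of these shifts was not tested.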

Other observations

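A set of 53 probes shared 1 pattern of ratios over the 4 arrays, within 0.25 log2 units of −0.99, −2.38, −0.44 and −0.40. The pattern was chosen after the values were seen. Of these probes 10 have a symbol (Akap7, B020031M17Rik, Dcc, Ermn, Gab3, Gcm1, Pigr, Pnma2, Rhox8 and Trpm1), and the genes lie on 9 chromosomes. Their median level was 15.01 and 16.7 in wild-type females 1 and 2 and 14.0 and 14.3 in mutant females 1 and 2. They make up 14 of the 80 transcripts that were at least 2-fold lower on both arrays. What these probes share was not tested.

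Xist, which coats and silences the inactive X, had ratios of −0.43 and −1.56 in females, with 9.45 and 10.4 in wild types and 9.02 and 8.87 in mutants (limma adjusted p = 0.531). Fos, an immediate early gene, read 11.0 in wild-type female 1, 10.3 and 12.0 in mutants and 6.13 in wild-type female 2, and it was well above background in 0 of 4 males.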
